A study of Rattus norvegicus with 91 samples.

Results

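The genes described here encode potassium channels, their accessory subunits and the hyperpolarization-activated HCN channels, measured in the ventral tegmental area of rats. They are a list of 38 genes matched by symbol to probe sets that the platform annotation gives to exactly 1 gene. Of the 38, 37 had such a probe set, out of 14217 genes, and Kcnn2 was the gene with none. For the tests each gene was represented by its probe set with the highest mean signal. Of the 37, 32 passed the filter on dim genes, a line mean of at least 7.02 on the log2 scale in at least 1 line. Kcnb2, Kcnj9, Kcnj10, Kcnk9 and Hcn4 did not and were not tested. Over all 91 arrays the signals of these 5 ran from 5.89 to 7.34 for Kcnb2, 5.08 to 6.37 for Kcnj9, 4.59 to 6.24 for Kcnj10, 4.94 to 6.43 for Kcnk9 and 5.45 to 7.19 for Hcn4.

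The rats came from 10 lines that form 5 pairs bred in opposite directions for alcohol intake. The high-intake lines, with their low-intake partners, are sP (sNP), AA (ANA), P (NP), HAD2 (LAD2) and HAD1 (LAD1). Each array is 1 animal by its label: 8 sP, 9 sNP, 10 AA, 10 ANA, 9 P, 10 NP, 8 HAD2, 9 LAD2, 8 HAD1 and 10 LAD1. The sources used here give no age, sex or exposure of the rats. The HAD and LAD pairs are known as replicate selections from 1 outbred stock. Alleles also become fixed by chance in bred lines, so selection and drift cannot be told apart within a pair.

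Potassium channels carry the outward current that repolarizes a neuron and paces its firing. In midbrain dopamine neurons, A-type channels built from Kv4 subunits and KChIP proteins delay the next spike, SK channels shape the pause after a spike, and GIRK channels carry the inhibition by dopamine D2 and GABA-B receptors. HCN channels carry the depolarizing current seen on hyperpolarization, a physiological mark of many of these neurons.

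The tissue label was read against defining markers of dopamine neurons. Th, which encodes tyrosine hydroxylase, had line means of 12.94 to 14.98 and the dopamine transporter gene Slc6a3 of 12.73 to 14.66. Several arrays stood apart. The array labelled AA 1 had a distribution of signals like that of the P and NP arrays, and those labelled AA 19 and ANA 20 were closer to the sP and sNP arrays. The mean log2 signal of 16 dopamine neuron markers ran from 8.32 (array P 10) to 12.26 in P and from 9.01 (array NP 8) to 11.93 in NP, while in each of the other 8 lines its lowest and highest array lay within 1 log2 unit of each other. The Gapdh control's 3'-minus-5' log2 signal had line means of 3.42 and 3.58 in HAD2 and LAD2, 1.89 and 1.78 in HAD1 and LAD1, and at most 0.57 elsewhere. Levels were therefore compared only within a pair, and groups outside the HAD and LAD lines are called by the labels of their arrays.

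Few channel genes differed between the lines of a pair. Kcnip1 was higher in HAD1 than in LAD1 and Kcnd2 was lower in HAD2 than in LAD2, at a limma p, adjusted over all genes, under 0.05. In HAD1/LAD1 this was 1 of 32 members, where 3.85% of the 11082 genes tested were called (2.08% as higher). In HAD2/LAD2 it was 1 of 32, where 5.46% of all genes were called (2.1% as lower), so 1 of 32 was close to the background in each pair. In P/NP and sP/sNP limma called 0 members and 0% of all genes, with an unadjusted p under 0.05 for 4 and 0 members (6.4% and 1.12% of all genes). In AA/ANA it called 0 of 32, where 2.94% of all genes were called, with 1 member at an unadjusted p under 0.05 (12.8% of all genes). For the average over the pairs it called 0 of 32 and 1.4% of all genes, with 1 member at an unadjusted p under 0.05 (10.1% of all genes).

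The median log2 difference of the 32 members, high-intake minus low-intake line, was 0.02 in HAD1/LAD1, 0.01 in HAD2/LAD2, and 0.04, -0.0024 and -0.0045 in the pairs P/NP, AA/ANA and sP/sNP. Over all genes these medians were 0.01, 0.02, -0.01, -0.0027 and 0.01. Members varied more between rats than most genes did, and the median standard error of a member's difference was 0.141 to 0.153, against 0.0663 to 0.0721 over all genes. The spread was widest in P and NP, where the median standard deviation of a member was 0.487 and 0.501, against 0.175 to 0.245 in the other 8 lines. The 95% interval of the difference lay within 1.5-fold either way for 28 of 32 members in HAD1/LAD1, 27 in HAD2/LAD2, 26 in P/NP, 30 in AA/ANA and 31 in sP/sNP. The intervals, standard errors and p-values of the main fit use the spread of each gene pooled over all lines. For a typical member the intervals and standard errors are therefore too narrow in P/NP and too wide in the other pairs. Unadjusted p-values in P/NP tend to be too low for the same reason, and the 26 in P/NP may be too high.

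**Figure D1:**
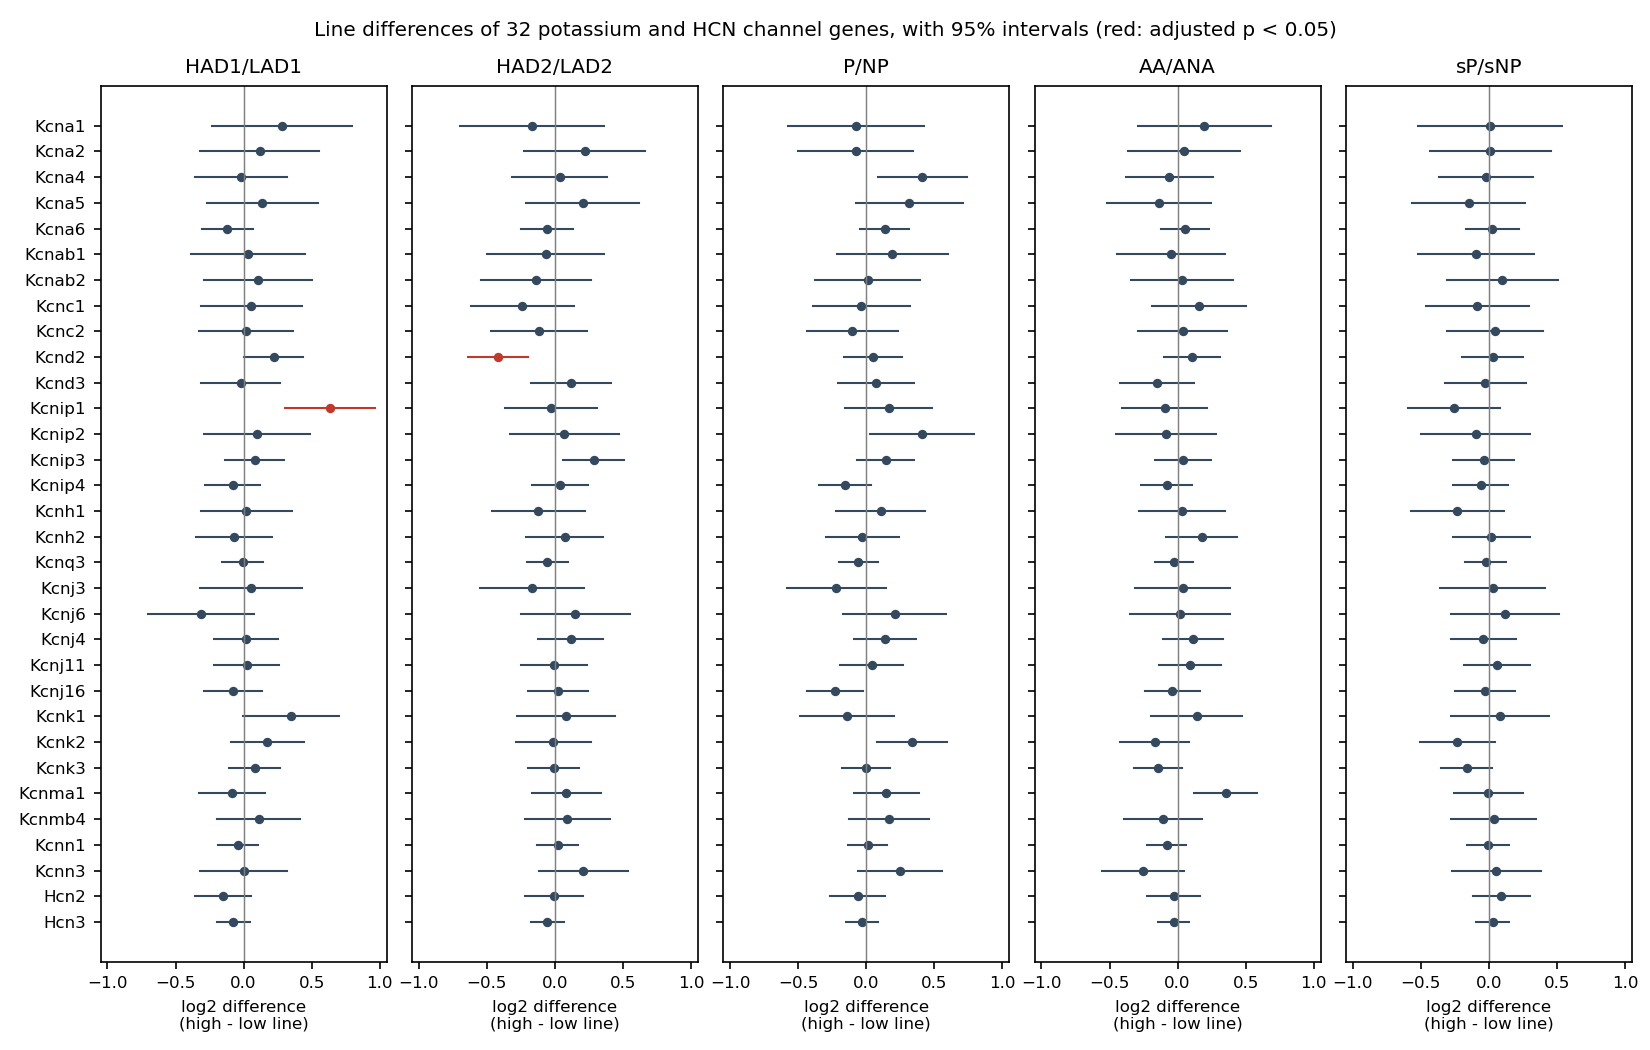
Log2 difference between the high-intake and the low-intake line (points) with its 95% interval from limma (bars) for 32 potassium and HCN channel genes, in a panel for each pair. The intervals use the spread of each gene pooled over all lines, which tends to make them too narrow in P/NP. Red marks an adjusted p under 0.05, reached by Kcnip1 in HAD1/LAD1 (0.63) and by Kcnd2 in HAD2/LAD2 (-0.42).

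The A-type channel genes and their KChIP partners held both calls. Kcnd2 encodes a Kv4 pore subunit, which carries the fast transient A-type current. Its log2 signal was 10.50, 11.05 and 11.48 (lowest, median and highest of 8 rats) in HAD2 and 11.25, 11.43 and 11.81 (9 rats) in LAD2. Of the 8 HAD2 rats, 6 were below every LAD2 rat and 4 of the 9 LAD2 rats were above every HAD2 rat, so the groups overlapped in part. The difference was -0.42 ± 0.11 (standard error; 95% interval -0.64 to -0.20; limma adjusted p 0.00941). The call was kept in 16 of 17 fits that left out 1 rat and was lost without HAD2 7, where the difference was -0.34 and the limma adjusted p 0.0584. The other tested probe set of Kcnd2 was 8.63, 9.30 and 9.89 in HAD2 and 9.27, 9.75 and 10.29 in LAD2. It went the same way without passing the test, at -0.38 ± 0.15 (limma adjusted p 0.136).

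The other replicate selection had the opposite sign for Kcnd2. Signals were 10.77, 10.95 and 11.61 in HAD1 and 10.48, 10.85 and 11.35 in LAD1, with wide overlap. The difference of 0.22 ± 0.11 did not pass the test (limma adjusted p 0.394), and the other probe set gave 0.19. The 2 selections differed from each other by 0.64 ± 0.16 in this difference (95% interval 0.33 to 0.95; limma adjusted p 0.00454), and this call was kept in each of 35 fits that left out 1 HAD or LAD rat. Kcnd2 was the 1 member of 32 called in that contrast, where 4.14% of all genes were called (1.84% in the same direction). It was also the 1 member of 32 whose difference depended on the pair by limma's F test (adjusted p 0.0266), where 6.33% of all genes were called. That F test called no member without LAD2 11, LAD2 13, HAD2 7 or HAD2 8. In P/NP, AA/ANA and sP/sNP the Kcnd2 differences were 0.05, 0.11 and 0.03. The SD of Kcnd2 was 0.32 in HAD1, 0.27 in LAD1, 0.30 in HAD2 and 0.19 in LAD2, and 0.13 to 0.28 in the other lines. Unlike for a typical member, the pooled spread may make the Kcnd2 standard errors and p-values too small in the HAD and LAD pairs.

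Markers of cell types were read beside the Kcnd2 result. The mean of the 16 dopamine neuron markers was 11.50 ± 0.26 (SD) in HAD2 and 11.44 ± 0.18 in LAD2, and limma called 0 of 16, with 0 at an unadjusted p under 0.05. With this mean as a covariate, a fit chosen after seeing the data, the Kcnd2 difference was -0.41 (limma adjusted p 0.00287). The mean of 8 GABA neuron markers was 9.54 ± 0.21 in HAD2 and 9.49 ± 0.21 in LAD2. Of 12 endothelial and pericyte markers, 4 were called higher and 2 lower in HAD2, where 3.36% of all genes were called higher and 2.1% lower. Their mean was 9.19 ± 0.08 in HAD2 and 9.08 ± 0.04 in LAD2, and their median difference was 0.01. The part of these markers in the Kcnd2 difference was not tested. In bulk tissue, fewer cells of a type and less RNA per cell cannot be told apart. Of the 10 tested genes nearest to Kcnd2 on chromosome 4, limma called 0 in HAD2/LAD2.

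Kcnip1 encodes KChIP1, a calcium-binding protein that joins Kv4 channels and brings them to the cell surface. Its log2 signal was 10.14, 10.44 and 10.98 (lowest, median and highest of 8 rats) in HAD1 and 9.39, 9.83 and 10.64 (10 rats) in LAD1. Of the 10 LAD1 rats, 9 were below every HAD1 rat, and LAD1 31 lay within the HAD1 range. The difference was 0.63 ± 0.17 (95% interval 0.30 to 0.96; limma adjusted p 0.0115), and each of 18 fits without 1 rat kept the call, at 0.56 to 0.72. The other tested probe set was 6.11, 6.37 and 6.55 in HAD1 and 5.92, 6.16 and 6.46 in LAD1, a difference of 0.20 ± 0.16 that did not pass (limma adjusted p 0.724), and these signals were under the 7.02 of the filter in every rat of both lines. With the mean of the gene's probe sets the difference was 0.27 and was not called (limma adjusted p 0.167), so the call rests on 1 probe set.

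In the other pairs Kcnip1 differed by -0.26 (sP/sNP), -0.10 (AA/ANA), 0.16 (P/NP) and -0.03 (HAD2/LAD2), none of them called. The HAD1/LAD1 difference exceeded that of HAD2/LAD2 by 0.66 ± 0.24, which did not pass (limma adjusted p 0.115), nor did the F test over the pairs (limma adjusted p 0.0543). HAD1 rats had a dopamine marker mean of 11.53 ± 0.18 (SD) and LAD1 rats one of 11.66 ± 0.29. With this mean as a covariate, at 1 slope for all arrays, the Kcnip1 difference was 0.63 (limma adjusted p 0.0114). Fitted within a pair, the slope of Kcnip1 on the marker mean was -0.67 in HAD1/LAD1 (limma adjusted p 0.245) and 0.05 in P/NP. That 0.63 is therefore not an adjustment within HAD1/LAD1. The GABA neuron marker mean was 9.66 ± 0.21 in HAD1 and 9.53 ± 0.33 in LAD1, where limma called 0 of 8 (0 at an unadjusted p under 0.05), and its part in the Kcnip1 difference was not tested. Of the 10 tested genes nearest to Kcnip1 on chromosome 10, limma called 0 in HAD1/LAD1.

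**Figure D2:**
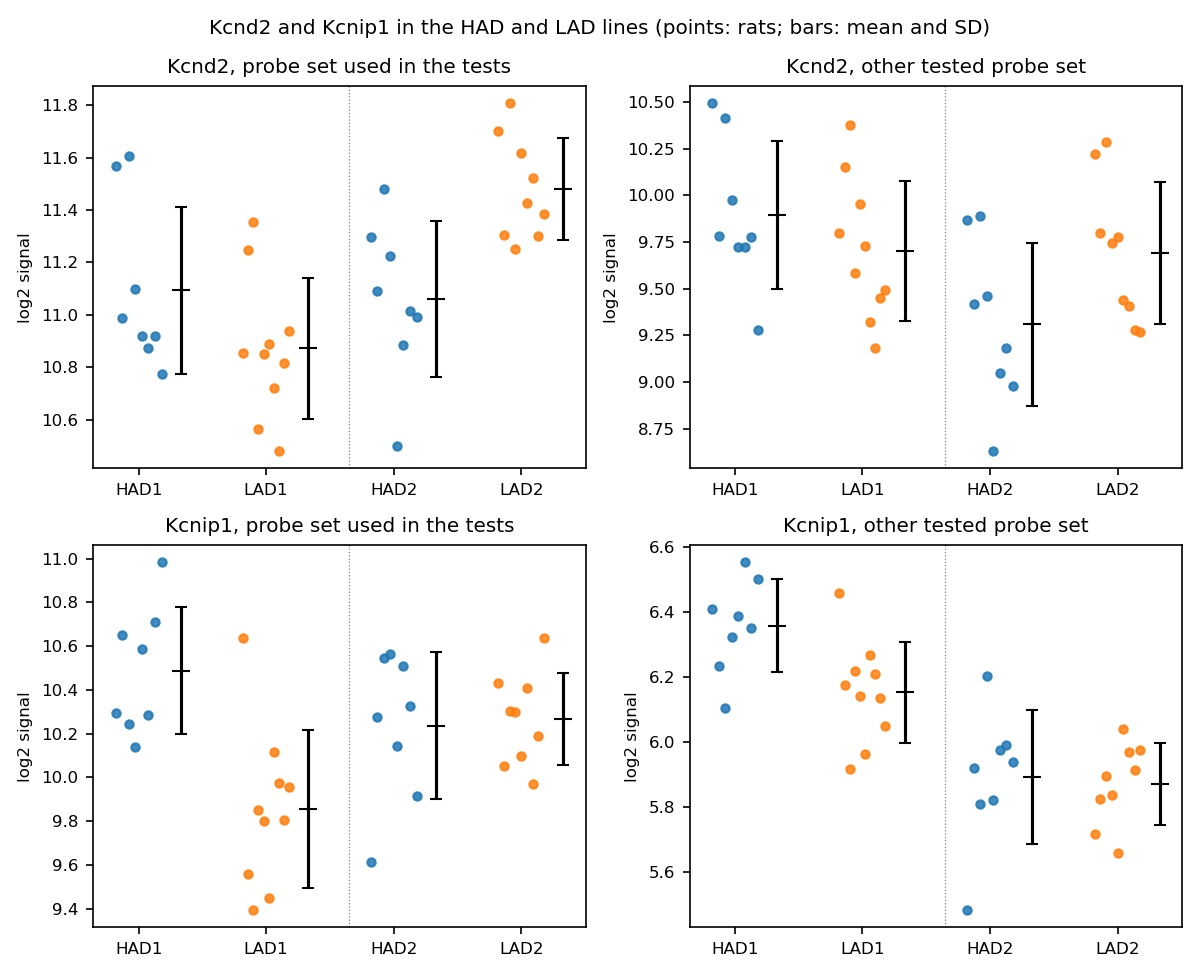
Log2 signals of Kcnd2 (top) and Kcnip1 (bottom) for single rats (points) of HAD1, LAD1, HAD2 and LAD2, with mean and SD (bars), at the probe set used in the tests (left) and the other tested probe set (right). Kcnd2 is lower in HAD2 than in LAD2 at both probe sets (differences -0.42 and -0.38), and Kcnip1 is higher in HAD1 than in LAD1 by 0.63 on the left and 0.20 on the right.

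The other genes of this group gave no call. Kcnip3, which encodes KChIP3, known also as the transcriptional repressor DREAM, was 10.25, 10.42 and 10.75 in HAD2 and 9.97, 10.17 and 10.37 in LAD2. Of the 8 HAD2 rats, 5 were above every LAD2 rat. The difference of 0.28 ± 0.11 did not pass (limma adjusted p 0.148), but it was called with the pair fitted alone (limma adjusted p 0.0169), where the spread of the other lines does not enter and 5.22% of all genes were called. Over the pairs, the further KChIP genes differed by -0.10 to 0.41 (Kcnip2) and -0.16 to 0.04 (Kcnip4). Kcnd3, the other Kv4 pore gene on the list, differed by between -0.15 and 0.12 over the pairs.

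Shaker-type channels, with the pore genes Kcna1, Kcna2, Kcna4, Kcna5 and Kcna6 and the beta subunit genes Kcnab1 and Kcnab2, had 0 limma calls in 35 differences. Of these 1 had an unadjusted p under 0.05, in P/NP, where 6.4% of all genes did. Kcna1, which encodes a low-threshold axonal channel, had the widest spread of the members in each HAD and LAD line. It was 10.18, 10.55 and 11.67 in HAD1 and 9.82, 10.39 and 11.26 in LAD1, a difference of 0.28 ± 0.26 with wide overlap. Kcna2, a usual partner of Kcna1 in axons, was 12.03, 12.43 and 13.21 in HAD2 and 11.77, 12.31 and 12.73 in LAD2, a difference of 0.22 ± 0.22. The differences over the pairs ran from -0.06 to 0.41 for Kcna4, -0.15 to 0.32 for Kcna5, -0.09 to 0.19 for Kcnab1 and -0.14 to 0.11 for Kcnab2. For Kcna6, 6 of the 10 LAD1 rats were above every HAD1 rat, with 10.98, 11.10 and 11.18 in HAD1 and 11.10, 11.19 and 11.35 in LAD1. The difference was -0.12 ± 0.09 and was not called (limma adjusted p 0.743).

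The Shaw-type genes Kcnc1 and Kcnc2 encode channels known for fast repolarization in fast-spiking neurons, and limma called 0 of 10 differences (0 at an unadjusted p under 0.05). Kcnc1 was 11.07, 11.31 and 12.33 in HAD2 and 11.36, 11.66 and 12.15 in LAD2. Of the 8 HAD2 rats, 5 were below every LAD2 rat and 1 was above all of them, and the difference was -0.24 ± 0.19 (limma adjusted p 0.668). Kcnc2 differed by -0.12 to 0.04 over the pairs. For the ether-a-go-go genes Kcnh1 and Kcnh2 and the M-channel gene Kcnq3, limma called 0 of 15 differences (0 at an unadjusted p under 0.05). Kcnh1 was 7.59, 7.75 and 7.94 in the arrays labelled sP and 7.40, 8.04 and 8.35 in those labelled sNP, where 6 of the 9 sNP arrays were above every sP array. The difference was -0.23 ± 0.17 (limma adjusted p 0.9997). Kcnh2, which encodes the ERG channel, differed by 0.18 ± 0.13 in AA/ANA (limma adjusted p 0.678), and by 0.12 without AA 1, AA 19 and ANA 20. Kcnq3, a subunit of the channel that muscarinic receptors close, differed by -0.06 to -0.01 over the pairs.

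Of the 7 inward rectifier genes 5 were tested, and limma called 0 of 25 differences. Of these 1 had an unadjusted p under 0.05, in P/NP, where 6.4% of all genes did. Kcnj6 encodes the GIRK subunit for which dopamine neurons are known. It was 10.41, 10.86 and 11.07 in HAD1 and 10.56, 11.21 and 11.59 in LAD1, where 6 of the 10 LAD1 rats were above every HAD1 rat. The difference was -0.31 ± 0.20 (limma adjusted p 0.595), and in sP/sNP it was 0.12 ± 0.20. Kcnj3, the gene of a partner GIRK subunit, was 6.16, 6.52 and 6.85 in HAD2 and 6.48, 6.60 and 6.88 in LAD2, a difference of -0.17 ± 0.19 between dim signals. Kcnj4 and Kcnj16 differed by -0.04 to 0.14 and -0.23 to 0.02 over the pairs. Kcnj11, the pore of the ATP-sensitive channel of neurons, differed by between -0.01 and 0.09 over the pairs.

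The tandem-pore genes encode channels of background leak current, and limma called 0 of 15 differences. Of these 1 had an unadjusted p under 0.05, in P/NP, where 6.4% of all genes did. Kcnk1 was 6.60, 6.86 and 7.24 in HAD1 and 6.15, 6.59 and 6.78 in LAD1, with 5 of the 8 HAD1 rats above every LAD1 rat. Its difference of 0.34 ± 0.18 was not called (limma adjusted p 0.432), but it was with the pair fitted alone (limma adjusted p 0.0340), where 3.08% of all genes were called. Both lines had a Kcnk1 mean under the 7.02 of the filter (6.85 and 6.51), and the gene was tested through its signal in other pairs, so the call rests on dim signals. Of 160 combinations of a tested member and a pair, 19 had both line means under 7.02. Kcnk2, which encodes the stretch-sensitive channel TREK-1, was 9.68, 10.04 and 10.13 in the arrays labelled sP and 9.58, 10.21 and 10.47 in those labelled sNP. There 6 of the 9 sNP arrays were above every sP array, and the difference was -0.23 ± 0.14 (limma adjusted p 0.9997). Kcnk3 differed by between -0.16 and 0.08 over the pairs.

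Among the calcium-activated channels Kcnma1 came closest to a call. It encodes the pore of the large-conductance BK channel, a channel that ethanol is known to act on. Its log2 signal was 8.34, 8.77 and 9.08 (lowest, median, highest) in the 10 arrays labelled AA and 7.99, 8.32 and 8.91 in the 10 labelled ANA, and 7 of the 10 ANA arrays were below every AA array. The difference was 0.35 ± 0.12 (95% interval 0.12 to 0.59) and did not pass (limma adjusted p 0.0800). It was called without the arrays AA 1, AA 19 and ANA 20 (0.41, limma adjusted p 0.0456; 3.65% of all genes called), without AA 5, ANA 14 or ANA 20 alone, and without P 10 and NP 8 (0.35, limma adjusted p 0.0205; 3.36% of all genes called). The other tested probe set went the opposite way, with 6.67, 7.41 and 7.90 in AA and 6.82, 7.65 and 8.14 in ANA and a difference of -0.30 ± 0.15 (limma adjusted p 0.372). Which transcripts each probe set measures was not tested.

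**Figure D3:**
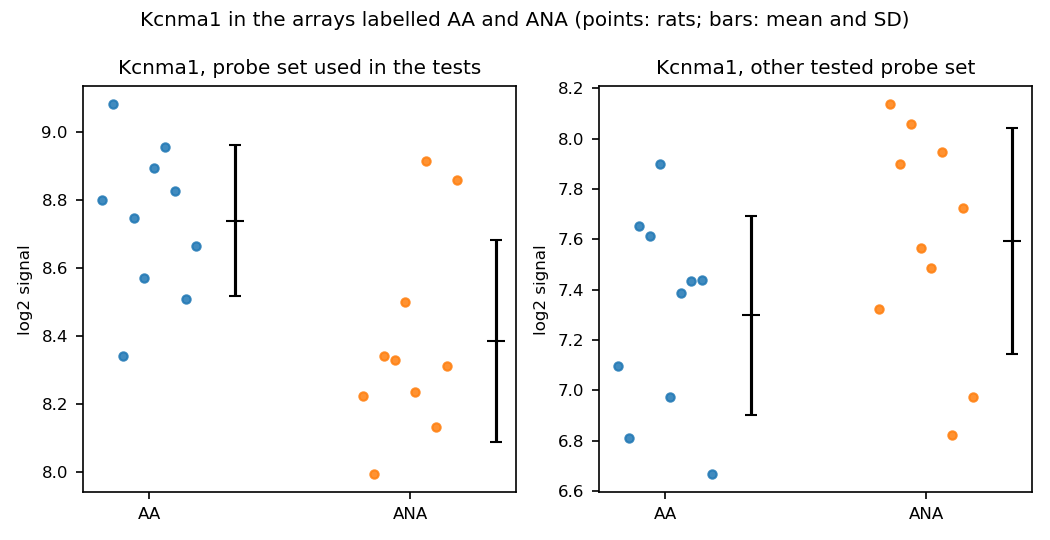
Log2 signals of Kcnma1 in single arrays labelled AA and ANA (points), with mean and SD (bars), at the probe set used in the tests (left) and the other tested probe set (right). The AA arrays tend to be higher on the left (difference 0.35) and lower on the right (-0.30).

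Kcnmb4, the gene of the neuronal beta subunit of the BK channel, differed by between -0.11 and 0.17 over the pairs. Kcnn3, which encodes an SK channel subunit of dopamine neurons, was 7.02, 7.87 and 8.26 in HAD2 and 7.42, 7.61 and 7.82 in LAD2. Of the 8 HAD2 rats, 5 were above every LAD2 rat and HAD2 5 was below all of them, giving a difference of 0.21 ± 0.16, or 0.32 without HAD2 5. In AA/ANA it was 7.09, 7.57 and 7.80 in AA and 7.49, 7.79 and 7.98 in ANA, a difference of -0.25 ± 0.15 (limma adjusted p 0.531), or -0.23 without AA 1, AA 19 and ANA 20. Kcnn1 differed by between -0.08 and 0.02.

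For the HCN genes limma called 0 of 10 differences (0 at an unadjusted p under 0.05), which ran from -0.15 to 0.09. Hcn2 was 8.32, 8.60 and 8.77 in HAD1 and 8.44, 8.68 and 9.19 in LAD1, a difference of -0.15 ± 0.10 with wide overlap. In sP/sNP it was 0.09 ± 0.11. Hcn3 differed by between -0.07 and 0.03 over the pairs.

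Probe sets of the same gene often disagreed in sign. Of 15 members with several tested probe sets, 14 had differences of both signs in at least 1 pair: Kcna6, Kcnab1, Kcnab2, Kcnc2, Kcnd2, Kcnd3, Kcnip1, Kcnj3, Kcnj6, Kcnj11, Kcnj16, Kcnk2, Kcnk3 and Kcnma1. Kcnip4 was the exception, while Kcnj6, with 4 tested probe sets, had both signs in each of the 5 pairs. The ranges given above for single genes are those of the brightest probe set, and some other probe sets went further. Kcnc2, with 5 tested probe sets, ranged in HAD2/LAD2 from -0.45 (limma adjusted p 0.606) to 0.61 (limma adjusted p 0.398). A probe set of Kcnab2 reached -0.36 in HAD1/LAD1 (limma adjusted p 0.152) and 1 of Kcnj11 0.25 in AA/ANA (limma adjusted p 0.181). Counted by gene and pair, 30 of 75 combinations had mixed signs. Tested as separate probe sets, 55 in all for the members, limma called the same probe set of Kcnip1 in HAD1/LAD1 and of Kcnd2 in HAD2/LAD2 and no other in any pair. Of all probe sets it called 4.09% in HAD1/LAD1, 5.23% in HAD2/LAD2, 0% in P/NP, 3.17% in AA/ANA and 0% in sP/sNP.

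In P/NP the largest member differences moved with the arrays P 10 and NP 8. P 10 held the highest of the 19 signals for 11 of the 32 members and the lowest for 4, and NP 8 the highest for 7 and the lowest for 7. Kcnip2, a KChIP gene, was 11.67 in P 10, against 7.75 to 9.23 in the other P arrays and 7.71 to 9.50 in NP. Kcna4, a further A-type pore gene, was 10.95 in P 10 against 8.05 to 8.94 in the other P arrays. Kcna5 was 8.87 there against 5.66 to 6.41. In the same array the Kir gene Kcnj16 was low, at 9.81 against 11.43 to 11.82. So was the KChIP gene Kcnip4, at 10.78 against 11.54 to 12.03.

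With all arrays the P/NP differences were 0.41 ± 0.16 for Kcna4, 0.41 ± 0.19 for Kcnip2, 0.34 ± 0.13 for Kcnk2, -0.23 ± 0.10 for Kcnj16, -0.22 ± 0.18 for Kcnj3 and -0.16 ± 0.10 for Kcnip4, with limma adjusted p of 0.726 to 0.894. These standard errors use the spread pooled over all lines and tend to be too small for P/NP. Without P 10 and NP 8 the differences were 0.05, 0.06, 0.07, -0.02, -0.02 and -0.03. P 10 also had the lowest dopamine marker mean of these arrays, and its part in the channel signals was not tested. With arrays weighted by their fit to the model, limma called 11 of 32 members in P/NP, where 13.5% of all genes were called. The lowest weights, 0.0921 to 0.184, fell on P 10, NP 10, NP 9 and NP 2, and the dopamine marker means of these NP arrays were 11.47, 11.93 and 11.89.

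A small set of members followed the dopamine neuron markers from rat to rat. For each pair, limma fitted each of the 11066 tested genes that are no marker on the line and the mean of the 16 markers, with adjustment over all of them, a fit chosen after seeing the data. Pearson's r and Spearman's rho were taken for the 160 relations of members, as deviations from line means (17 to 20 arrays), with a p from 100000 permutations within lines that was not adjusted. Arrays share their normalization, which enters both measures. Limma called 3 of 32 members in HAD1/LAD1, where 235 of the 11066 genes were called, and 5 in HAD2/LAD2 (1.52% of all genes). It called 9 in P/NP (16.9%), 4 in AA/ANA (2.49%) and 3 in sP/sNP (2.23%). Of these members 3, 4, 4, 3 and 3 rose with the markers in the pairs in that order, as did 153 of 235, 135 of 168, 1229 of 1873, 179 of 276 and 215 of 247 of the genes called.

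At the brightest of its 4 tested probe sets, the only 1 set against the markers, Kcnj6 was called in each of the 5 pairs (highest limma adjusted p 0.00549). Its Pearson's r was 0.92 in HAD1/LAD1, 0.88 in HAD2/LAD2, 0.94 in P/NP, 0.78 in AA/ANA and 0.88 in sP/sNP (permutation test, highest p 9.00e-05), and its rho was 0.74 to 0.98 (permutation test, highest p 0.000470). Without the 2 arrays farthest from the median marker level its r was 0.73 to 0.98, and the call was lost in AA/ANA (limma adjusted p 0.0574) and sP/sNP (limma adjusted p 0.0535). Without those arrays the share of all genes called was 0.723% in HAD1/LAD1, 0.0994% in HAD2/LAD2, 50.7% in P/NP, 0.605% in AA/ANA and 0.00904% in sP/sNP, for 2, 1, 26, 0 and 0 of 32 members.

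Kcnd3 was called in all pairs but sP/sNP, with r of 0.87, 0.92, 0.89 and 0.77 (highest limma adjusted p 0.00758). In sP/sNP its r was 0.62 (limma adjusted p 0.113). Kcnn3 was called in HAD1/LAD1, HAD2/LAD2 and P/NP, with r of 0.86, 0.73 and 0.73 (highest limma adjusted p 0.0323). In HAD2/LAD2 the rho of Kcnn3 was 0.48 and its r 0.38 without HAD2 5 and LAD2 20. Kcnmb4 was called in HAD2/LAD2 and sP/sNP (r 0.89 and 0.83; limma adjusted p 0.00121 and 0.00711). In P/NP the r of Kcnmb4 was 0.24 with all arrays and 0.85 without P 10 and NP 8. Kcnip4 was called in AA/ANA and sP/sNP (r 0.72 and 0.75; limma adjusted p 0.0222 and 0.0279). Without HAD2 5 and LAD2 20, Kcnj6 was the 1 member still called in HAD2/LAD2, and without LAD1 37 and LAD1 40 Kcnj6 and Kcnd3 were still called in HAD1/LAD1. Without AA 1 and AA 13, or in sP/sNP without sP 4 and sP 5, no member was. Without AA 1, AA 19 and ANA 20, r in AA/ANA was 0.79 for Kcnj6, 0.88 for Kcnd3 and 0.83 for Kcnip4.

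Members that ran against the markers were most numerous in P/NP. Kcnd2 had r of -0.93 and rho of -0.94 there (limma adjusted p 4.37e-06), and r of -0.90 without P 10 and NP 8. In the other pairs its r was -0.40 to -0.04 and was not called. Kcnma1 had r of -0.85 in P/NP (limma adjusted p 0.000213) and -0.75 without P 10 and NP 8. Kcnj4, Kcnh1 and Kcnab1 were also called there, with r of -0.74, -0.70 and -0.69. Kcnj4 was 8.48 in P 10, against 6.61 to 6.95 in the other P arrays. Without P 10 and NP 8 its r was -0.49 and its call was lost (limma adjusted p 0.0663). Kcnh1 and Kcnab1 were still called then, with r of -0.66 and -0.72. Without P 10 and NP 8 limma called 17 of 32 members with a falling and 9 with a rising slope in P/NP, where 2745 of the 11066 genes were called with a falling and 2868 with a rising one. In this setting Kcnc1 had r of -0.81, Kcna1 of -0.76 and Kcnab2 of -0.75, against -0.48, -0.34 and -0.44 with all arrays.

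Elsewhere the falling relations were Kcnh1 in HAD2/LAD2 (r -0.78, limma adjusted p 0.0146) and Kcnk3 in AA/ANA (r -0.66, limma adjusted p 0.0451). Without HAD2 5 and LAD2 20 the r of Kcnh1 was -0.37 and it was not called. Kcnk3 had line means under the filter in both AA and ANA (6.73 and 6.87), so its call rests on dim signals. The r of Kcnk3 was -0.60 without AA 1 and AA 13, and it was not called then (limma adjusted p 0.198). Kcna6 followed the markers in P/NP, with r of 0.70 (limma adjusted p 0.00861). Kcnip1 was called in no pair (r -0.50 to 0.17).

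**Figure D4:**
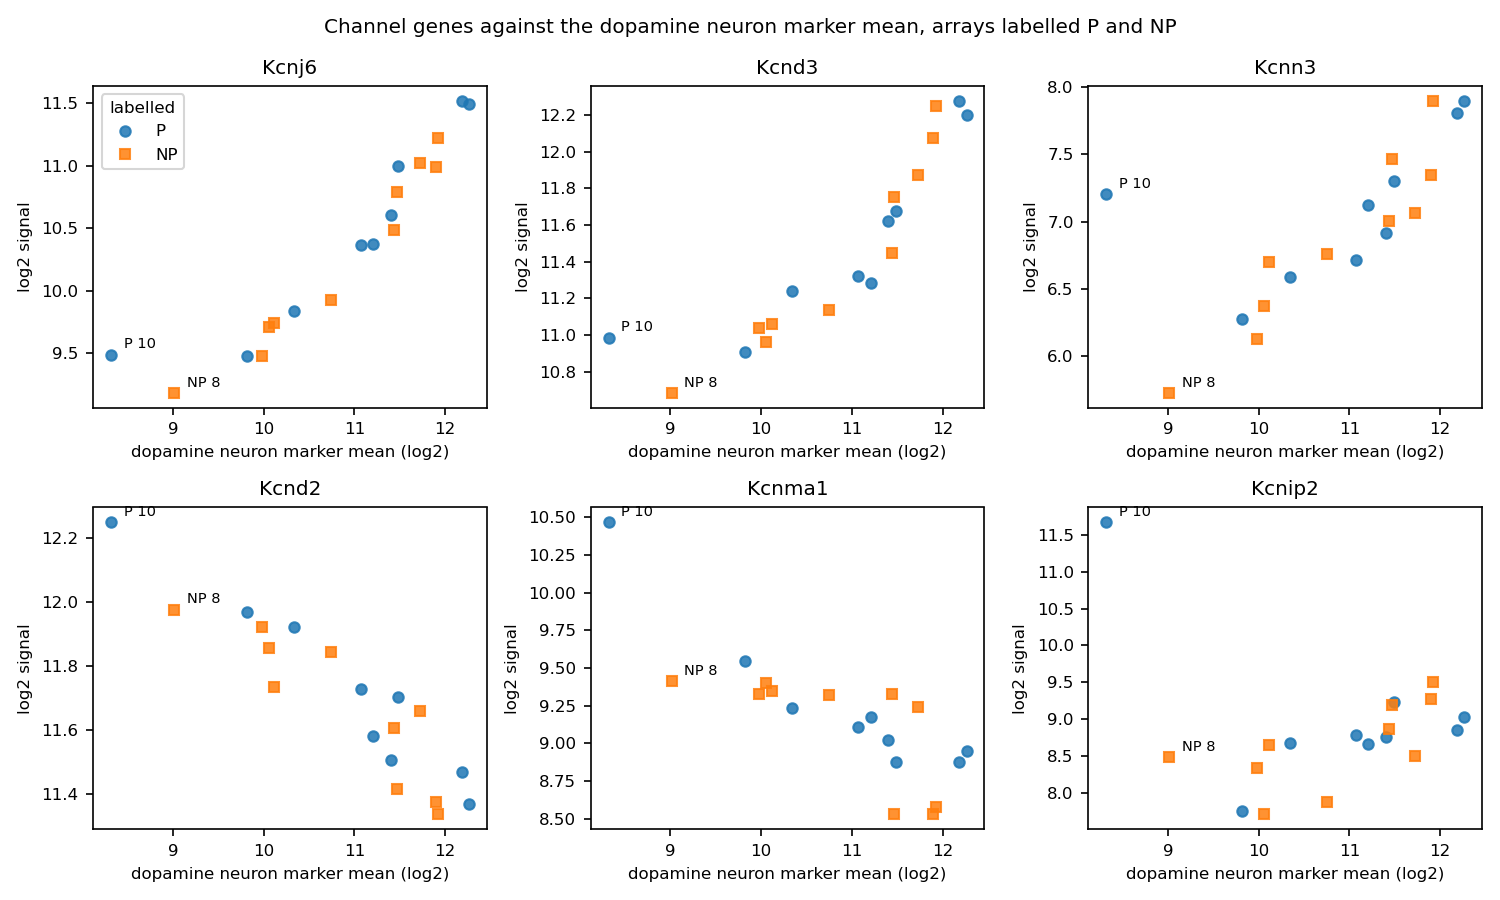
Log2 signals of 6 channel genes (vertical) against the mean log2 signal of 16 dopamine neuron markers (horizontal) in the 19 arrays labelled P and NP. Kcnj6 rises with the markers (r 0.94) and Kcnd2 falls (r -0.93), while array P 10 stands apart for Kcnip2 at 11.67.

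**Figure D5:**
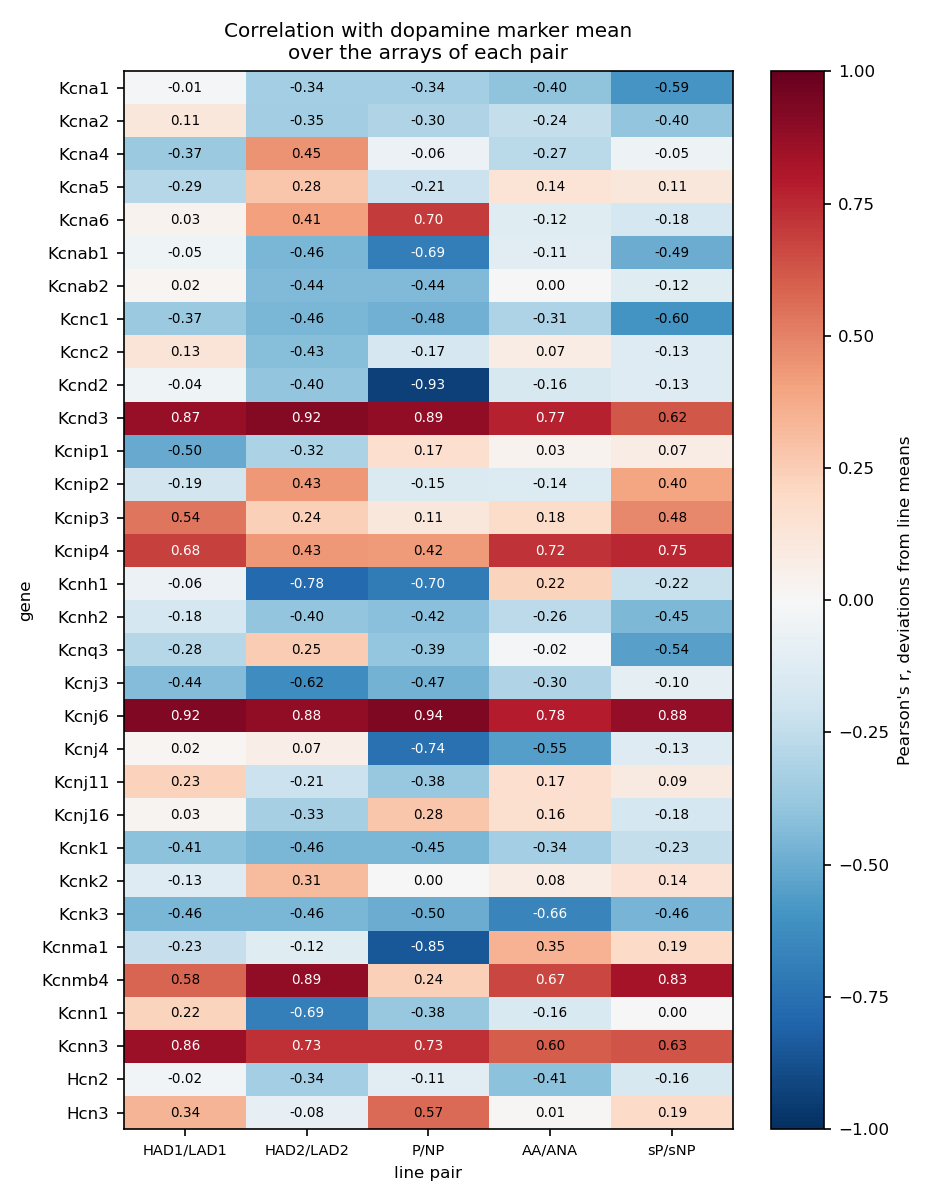
Pearson's r between each of 32 channel genes and the dopamine neuron marker mean over the arrays of each pair, after subtraction of line means, as a colour scale from -1 to 1. Kcnj6 lies between 0.78 and 0.94 in all 5 pairs.

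Promoters are shown for the members with a rising slope called in at least 2 pairs, as far as the table held them, so that their base composition can be seen. RefSeq promoters (GRCr8) were matched by symbol for 25 of the 38 genes, which leaves out Kcnip4. Each line gives the 250 bases before the start site, 5′ to 3′ on the gene's strand, with capitals marking GC boxes (GGGCGG, or CCGCCC on the other strand).
Kcnj6 (chr11:47778349-47778598, minus strand): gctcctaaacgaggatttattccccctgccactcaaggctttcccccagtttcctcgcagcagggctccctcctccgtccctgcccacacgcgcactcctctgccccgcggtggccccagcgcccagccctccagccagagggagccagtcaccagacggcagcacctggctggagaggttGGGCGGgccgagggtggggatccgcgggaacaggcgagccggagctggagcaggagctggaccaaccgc
Kcnd3 (chr2:195626066-195626315, plus strand): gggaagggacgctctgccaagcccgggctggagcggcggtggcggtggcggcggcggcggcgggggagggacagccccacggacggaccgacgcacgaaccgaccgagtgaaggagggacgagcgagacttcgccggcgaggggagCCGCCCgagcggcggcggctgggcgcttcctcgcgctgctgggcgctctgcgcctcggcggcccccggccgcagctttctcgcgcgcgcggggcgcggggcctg
Kcnn3 (chr2:177234090-177234339, plus strand): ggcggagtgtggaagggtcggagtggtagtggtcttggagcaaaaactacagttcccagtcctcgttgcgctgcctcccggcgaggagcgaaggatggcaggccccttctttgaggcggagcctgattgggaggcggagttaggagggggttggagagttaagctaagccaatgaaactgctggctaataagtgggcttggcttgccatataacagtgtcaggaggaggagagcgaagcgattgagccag
Kcnmb4 (chr7:54005102-54005351, minus strand): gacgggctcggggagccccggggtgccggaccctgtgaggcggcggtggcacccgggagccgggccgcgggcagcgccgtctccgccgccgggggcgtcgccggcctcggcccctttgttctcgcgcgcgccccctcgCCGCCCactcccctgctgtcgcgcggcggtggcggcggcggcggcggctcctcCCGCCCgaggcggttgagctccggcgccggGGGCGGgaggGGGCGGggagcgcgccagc
The GC box was found 1 time in Kcnj6, 1 time in Kcnd3, 4 times in Kcnmb4 and 0 times in Kcnn3. It was in 11 of 25 member promoters and in 30.5% of 33469 promoters. The share of G and C was 69.2% in Kcnj6, 79.6% in Kcnd3, 57.2% in Kcnn3 and 84.4% in Kcnmb4, against a median of 51.2% over all promoters. The letters AAAGGTCA (the NBRE, which Nr4a2 can bind) were in none of the 4 windows on either strand, in 1 of 25 member promoters and in 1.24% of all. TAATCC, bound by Pitx factors, was in none of the 4, in 1 of 25 and in 6.34% of all. A match describes the window only.

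Other genes of these pathways were counted from lists. Of 65 further potassium and HCN channel genes, 47 had a probe set and 26 were tested. Limma called 1 of 26 in HAD2/LAD2, Abcc9, and 1 of 26 in AA/ANA, Kcnj8, both higher in the high-intake line, where 3.36% and 1.49% of all genes were called higher. It called 0 of 26 in the other pairs. An unadjusted p under 0.05 was reached by 4 in HAD1/LAD1, 2 in HAD2/LAD2, 2 in P/NP, 5 in AA/ANA and 1 in sP/sNP. The shares of all genes in those pairs were 12.2%, 15.3%, 6.4%, 12.8% and 1.12%. Abcc9 and Kcnj8 encode the sulfonylurea receptor and the pore of the ATP-sensitive channel of pericytes and smooth muscle. Abcc9 was 9.93, 10.11 and 10.25 in HAD2 and 9.40, 9.60 and 9.91 in LAD2, without overlap, a difference of 0.44 ± 0.09 (limma adjusted p 0.000172). Its other tested probe set gave 0.16 (limma adjusted p 0.246). Kcnj8 was 6.84, 7.09 and 7.53 in the arrays labelled AA and 6.29, 6.78 and 7.17 in those labelled ANA, a difference of 0.32 ± 0.09 (limma adjusted p 0.0232). Without AA 1, AA 19 and ANA 20 the Kcnj8 difference was 0.33 (limma adjusted p 0.0301). The Kcnj8 call was kept in 15 of 20 fits that left out 1 array and was lost without AA 7, ANA 2, ANA 6, ANA 12 or ANA 16. Both genes are also in the endothelial and pericyte list, of which 2 of 12 were called higher in AA, and the part of those cells was not tested.

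Of 28 receptors and regulators known to act on GIRK channels, 21 were tested. The regulator gene Rgs6 was lower in HAD1 (-0.26 ± 0.08, limma adjusted p 0.0433), the 1 call of 21 there, where 1.77% of all genes were called lower. That call was kept in only 4 of 18 fits that left out 1 rat (highest limma adjusted p 0.124). The HAD1/LAD1 and HAD2/LAD2 differences of Rgs6 differed by -0.49 ± 0.11 (limma adjusted p 0.00247), where 2.3% of all genes were called in that direction. In HAD2 2 of 21 were called higher, where 3.36% of all genes were, the G-protein gamma subunit gene Gng3 (0.55 ± 0.09, limma adjusted p 8.41e-06) and the GABA-B receptor gene Gabbr1 (0.22 ± 0.07, limma adjusted p 0.0394). With 1 rat left out, the Gng3 call was kept in 17 of 17 fits and the Gabbr1 call in 6 of 17 fits. The nociceptin receptor gene Oprl1 was lower in AA (-0.20 ± 0.05, limma adjusted p 0.00554), the 1 call of 21 there, where 1.45% of all genes were called lower, and it was -0.20 without AA 1, AA 19 and ANA 20 (limma adjusted p 0.00675). Of 18 sodium and calcium channel genes of pacemaking, limma called 0 in each pair. An unadjusted p under 0.05 was reached by 0 in HAD1/LAD1, 3 in HAD2/LAD2, 7 in P/NP, 1 in AA/ANA and 0 in sP/sNP. In HAD2/LAD2 and AA/ANA the shares of all genes were 15.3% and 12.8%. In P/NP those 7 of 18 stood against 6.4% of all genes, and without P 10 and NP 8 there were 1 of 18, against 1.97% of all genes. The median difference of the 18 in P/NP was 0.17, against -0.01 over all genes, and 0.11 without P 10 and NP 8. In the same pair the median difference was 0.23 for the dopamine neuron markers and 0.15 for the GABA neuron markers, or 0.26 and -0.06 without those arrays, and their part in the pacemaking genes was not tested. In the other pairs the median of the 18 was between -0.03 and 0.01.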

How the data were processed

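Signals were measured on 1-colour expression arrays of amplified ventral tegmental area RNA from 91 rats. The table holds log2 values that the authors made by RMA, per the submitters' processing notes, for 31099 probe sets; the version of RMA is not given in the sources used here, nor is whether all arrays were normalized together. Control probe sets (57) and probe sets annotated with several genes (436) were left out. The probe set with the highest mean stood for each gene. Genes were tested if the highest of the 10 line means reached the 40th percentile of all values. A line mean per line was fitted in limma 3.58.1 (R 4.3.3; lmFit, eBayes; 81 residual degrees of freedom), with Benjamini-Hochberg adjustment over 11082 genes. The pipeline was tested on simulated data. Named are the called members, the 3 highest and 3 lowest differences of each pair, members whose probe sets differ in sign, and the called genes of the other lists, up to 6 a list. Members, lists and tests were chosen with earlier results of these data known. Alternatives covered the filter, scaling, probe set choice, trend, weights, arrays left out, technical sets, the pair alone and the replicate block; the fits on HAD and LAD arrays alone and with the dopamine marker covariate, and limma slopes on that marker mean, were added after seeing the data. Labels give 1 animal per array, and the number of arrays limits the precision.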

Additional observations from a re-analysis of the deposited data

Results flagged for a closer look

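In 9 of 60 groups of a named gene in a line, 1 array lay far from the others by Dixon's criterion. Chance meets it in about 1 in 20 groups that were not picked. These genes were named for their differences, which 1 array can make, so the 9 of 60 cannot be set against that rate. Of these 9, 5 were array P 10. Its log2 signal was 10.95 (nearest 8.94) for Kcna4, 11.67 (nearest 9.23) for Kcnip2, 10.82 (nearest 9.61) for Kcnk2, 9.81 (nearest 11.43) for Kcnj16 and 10.78 (nearest 11.54) for Kcnip4, where the nearest other P array is in brackets. Array NP 10 had 11.21 (nearest 11.77) for Kcnip4. Array sNP 4 had 11.55 (nearest 10.92) for Kcnab2 and 9.58 (nearest 10.09) for Kcnk2. Rat HAD2 5 had 7.02 (nearest 7.76) for Kcnn3, and it also had the lowest dopamine marker mean of HAD2.

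The Kcnd2 line difference was of opposite sign in the HAD and LAD selections, and the test of that contrast passed, at 0.64 (limma adjusted p 0.00454). Over the 5 pairs limma's F test for Kcnd2 had an adjusted p of 0.0266.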

How the results depend on the processing

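Across the planned settings (no filter, a filter at the 60th percentile, quantile normalization, centring, all probe sets, the mean of a gene's probe sets, trend with a robust prior, array weights, arrays left out, technical sets, the pair alone), the members called stayed at 0 in sP/sNP and for the average of the pairs. With the mean of the probe sets limma called 0 members in HAD1/LAD1 and 0 in the F test. With array weights it called 11 in P/NP, 1 in AA/ANA (Kcnma1), 2 in the contrast of the HAD and LAD selections and 11 in the F test, where 13.5%, 8.85%, 7.19% and 26.2% of all genes were called. Without AA 1, AA 19 and ANA 20, or without P 10 and NP 8, it called 1 in AA/ANA (Kcnma1) and 2 in the F test (Kcnd2 and Kcnip1). In these 2 settings 3.65% and 3.36% of all genes were called in AA/ANA, and 7.67% and 7.17% in the F test. The F test also called 2 without LAD1 37 and with the 5 technical sets, against 1 member and 6.33% of all genes in the main fit. With the pair alone limma called 2 in HAD1/LAD1 (with Kcnk1) and 2 in HAD2/LAD2 (with Kcnip3), where 3.08% and 5.22% of all genes were called. With HAD and LAD arrays alone it called 2 in HAD1/LAD1, 2 in HAD2/LAD2 and 2 for the contrast of the selections. The main fit called 3.85%, 5.46% and 4.14% of all genes there. With the dopamine marker covariate (1 slope for all arrays) limma called 1 in AA/ANA (Kcnma1), where the main fit called 2.94% of all genes. Causes were not tested. With 1 array left out, the members called ranged from 1 to 1 in HAD1/LAD1, 0 to 1 in HAD2/LAD2, 0 to 0 in P/NP, 0 to 1 in AA/ANA, 0 to 0 in sP/sNP, 1 to 2 for the contrast of the selections (2 without LAD1 31) and 0 to 2 in the F test. The 1 named gene that changed sign was Kcnab2 in sP/sNP, at -0.00243 with the mean of the probe sets. Centring moved the all-gene median by under 0.1. Numbers shared by P and NP or by sP and sNP mark no known pairing: same-numbered arrays correlated at -0.74 to 0.73 and -0.37 to 0.29, and the replicate block gave 0 members called in P/NP and 0 in sP/sNP. RMA was run by the authors before the arrays that stand apart could be left out.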

Other observations

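Single markers of other cells in the tissue were called within some pairs, while others on the same lists went the other way. Of the endothelial and pericyte markers, Abcb1a, the drug efflux pump of the blood-brain barrier, was lower in HAD1 (-0.53 ± 0.11, limma adjusted p 0.000924) and higher in HAD2 (0.60 ± 0.12, limma adjusted p 0.000106). It was also higher in AA (0.41 ± 0.11, limma adjusted p 0.0129), and by 0.51 without AA 1, AA 19 and ANA 20 (limma adjusted p 0.00153). Tek, an endothelial receptor gene, went the other way, higher in HAD1 (0.39 ± 0.07, limma adjusted p 3.04e-05) and lower in HAD2 (-0.37 ± 0.07, limma adjusted p 7.38e-05). The contrast of the selections was called for both, at -1.12 ± 0.16 and 0.76 ± 0.10 (limma adjusted p 1.64e-07 and 7.25e-09). Vtn (0.41 ± 0.11) and the pericyte gene Rgs5 (0.35 ± 0.09) were higher and Slco1a4 (-0.20 ± 0.07) was lower in HAD2 (limma adjusted p 0.0121, 0.00729 and 0.0454). With 1 rat left out, the Vtn call was lost without HAD2 9, and the Slco1a4 call was kept in 8 of 17 fits. Of the 12 markers tested, 1 was called higher and 1 lower in HAD1, where 2.08% and 1.77% of all genes were.

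Of the microglia markers, Cx3cr1 was lower in HAD1 (-0.33 ± 0.07, limma adjusted p 0.00119) and P2ry12 higher in HAD2 (0.54 ± 0.16, limma adjusted p 0.0278). Of 11 oligodendrocyte markers 1 was called in HAD1/LAD1, Mobp, higher in HAD1 (0.30 ± 0.08, limma adjusted p 0.00931), where 2.08% of all genes were called higher. In HAD2/LAD2 1 of 11 was called, Opalin, lower in HAD2 (-0.33 ± 0.10, limma adjusted p 0.0375), where 2.1% of all genes were called lower. The mean of the 11 was 12.68 in HAD1, 12.60 in LAD1, 12.42 in HAD2 and 12.50 in LAD2. With 1 rat left out, the P2ry12 call was kept in 12 of 17 fits and the Opalin call in 7 of 17 fits. Of the astrocyte markers limma called 0 of 12 in each pair, with 2 at most at an unadjusted p under 0.05. Of the glutamate neuron markers it called 0 of 4 and of the hypothalamic, mammillary and red nucleus markers 0 of 5 in each pair, with 1 at most at an unadjusted p under 0.05.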
